A study of Homo sapiens with 3 samples.

Results

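The SUMO conjugation pathway attaches small ubiquitin-like modifiers to lysines of target proteins and removes them again. The genes described here are SUMO2, SUMO3, SAE1, UBA2, PIAS1, PIAS4, SENP1 and SENP3. These 8 genes of the pathway were chosen by a rule on their role, with earlier results of these data known. They were found on the arrays through the RefSeq accession that the files give for each probe, which named 7 of the 8 genes (10 probes on 19 spots) among 19740 genes named in all. No probe was named SENP1, so that this gene is not described further. Huh7, an established human hepatoma cell line, was cultured without chlorogenic acid (CA, a plant polyphenol) or with CA at 50 μM or 100 μM for 24 h. Each group gave 1 preparation of total RNA, which was put on a one-colour (Cy3) Agilent whole genome array of its own, making 3 arrays. The arrays thus allow no test across samples, and each difference below is one between 2 arrays that has no replicate check. The purpose of the comparisons was to learn which transcripts changed under CA, and the study went on to examine SUMO proteins and the SUMOylation of c-Myc.

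SUMO proteins are made as precursors, are trimmed by SENP proteases, and are then activated by an E1 enzyme, which is a heterodimer of SAE1 and UBA2. The activated SUMO passes to an E2 enzyme and from there to the target lysine, often with the help of an E3 ligase such as a PIAS protein. SENP proteases also take SUMO off its targets, so that modification is reversible and often affects only a small share of a target at a given time. SUMO2 and SUMO3 are nearly identical in sequence after trimming and can form chains. The arrays measure mRNA only and say nothing on the amount of conjugated protein.

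For untreated cells, CA 50 μM and CA 100 μM in turn, 70.4%, 71.1% and 70.9% of unflagged gene spots had a signal that the scanner software called well above background. The level of a probe is given here as log2 of its processed signal minus the log2 of the 75th percentile of its array, which was 1059, 1207 and 1249 intensity units in the same order. A rise in intensity of a similar size from array to array is therefore no change in level. Of 12 hepatocyte or hepatoma markers, 10 were well above background in untreated cells and 11 at either dose. HNF4A reached this only with CA 50 μM and TF only with CA 100 μM. The summed intensity of the brightest probe of each of the 12 markers lay between 472750 and 482092 units. By the same measure, 6 leukocyte markers summed to between 1130 and 1425 units, 5 endothelial markers to between 845 and 1095, 6 fibroblast markers to between 547 and 712, and 5 basal epithelial markers to between 727 and 1471. All 6 leukocyte markers were well above background on every array, against 3, 3 and 4 fibroblast markers, 4, 3 and 3 endothelial markers and 2 basal epithelial markers on each array. The part of these sums in the values below was not tested. In RNA from a culture, fewer cells that express a gene and less RNA of it per cell cannot be told apart.

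All 10 member probes were well above background on all 3 arrays. Areas of disturbed spots, defined by neighbouring dim probes that were brighter on 1 array alone, covered 5.71% of the gene spots of the CA 100 μM array, with 0.139% and 0.0881% on the untreated and CA 50 μM arrays, and none of the member spots lay in such an area. Background flags touched 3 member spots, namely 1 of the 10 SUMO3 spots and 1 UBA2 spot on the untreated array and 1 SUMO2 spot at CA 50 μM.

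Error could be measured only within the arrays. Probes printed 10 times gave the spread between spots of a probe. The spot-to-spot SD of the log2 ratio between CA 50 μM and untreated cells had a median of 0.064 over 806 such probes, and was 0.051 in the brightest and 0.21 in the dimmest of 5 classes of signal that each held a similar number of probes. The scanner software also gives an error for each spot, which was at least 10.0% of the signal and made 0.20 on the log2 scale for a ratio of 2 bright spots. Neither covers the variation between cultures, extractions or hybridisations.

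SUMO2, a modifier that can form chains on its targets, was measured by 3 probes, which all gave a strong signal. The A_23_P118435 probe had 19623 intensity units in untreated cells, 23808 with CA 50 μM and 25625 with CA 100 μM. The A_24_P330691 probe had 15213, 19238 and 17897 units. The A_32_P149536 probe had 17568, 20291 and 20173 units. After scaling, the log2 ratios to untreated at CA 50 μM were 0.09, 0.15 and 0.02 in this order of probes. At CA 100 μM they were 0.15, -0.0037 and -0.04. With this scaling, each of these 6 ratios was smaller than the error of the scanner software, which was 0.20. The probes gave different orders of the arrays, with the untreated array lowest by the first probe and in the middle by the other 2. With the alternatives for processing, the first probe stayed above 0 at both doses. A_32_P149536 took either sign at both doses, and A_24_P330691 did so at CA 100 μM. Quantile normalization, cyclic loess and the log2 values of the authors gave larger ratios for some probes. The first probe then had 0.23 at CA 50 μM and 0.25 to 0.26 at CA 100 μM. A_24_P330691 had 0.27 to 0.28 at CA 50 μM. These ratios passed the error of the scanner software, while those of A_32_P149536 did not. The gap between the highest and the lowest SUMO2 probe was 0.19 for CA 100 μM against untreated, while the median gap over 3237 genes with at least 2 measured probes was 0.20. RefSeq lists 20 pseudogenes of SUMO2. Probe sequences were not used here, so that signal from such copies cannot be told apart from that of SUMO2.

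SUMO3, the closest relative of SUMO2, was the best measured of these genes, since its probe was printed 10 times. The 10 spots had between 7195 and 8401 intensity units in untreated cells (median 7867), between 8508 and 9495 at CA 50 μM (median 9240) and between 8919 and 9527 at CA 100 μM (median 9345). Their scaled log2 level was 2.90 ± 0.059 (SD, n = 10 spots of 1 array) in untreated cells, 2.92 ± 0.050 with CA 50 μM and 2.90 ± 0.025 with CA 100 μM. The intensities of the untreated spots lay below those of both CA arrays, but after scaling the levels of the 3 arrays overlapped. Spot by spot, the log2 ratio to untreated was 0.025 ± 0.040 (SD, n = 10 spots) at CA 50 μM, with 7 of the 10 spots above 0. At CA 100 μM it was -0.0005 ± 0.045, with 6 of the 10 spots above 0. With the alternatives, the SUMO3 ratio took either sign at both doses, between -0.024 and 0.12 at CA 50 μM and between -0.021 and 0.070 at CA 100 μM. The spots share 1 RNA sample per array, and their SD is a printing and scanning error only.

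**Figure D1:**
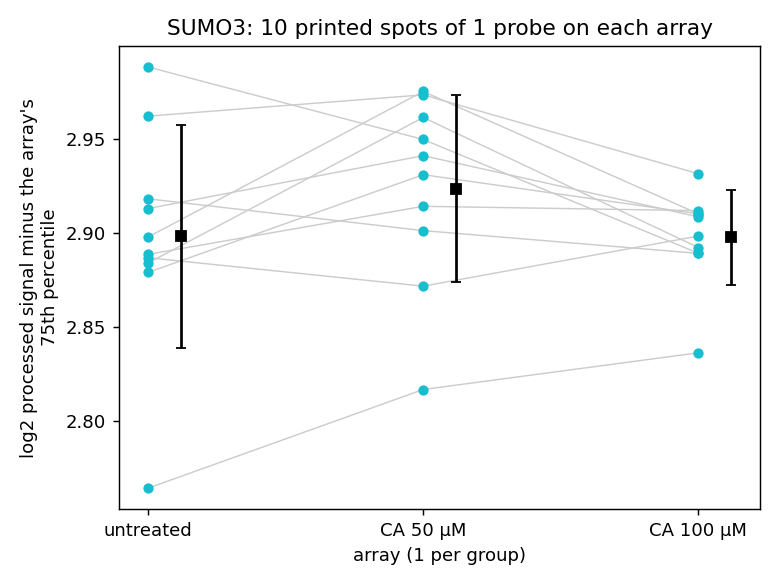
Scaled log2 level (log2 processed signal minus the 75th percentile of the array, vertical axis) of the 10 spots of the SUMO3 probe on the array of untreated cells and on those of CA 50 μM and CA 100 μM. Grey lines join spots at the same place of the array, and black squares with bars give the mean and SD of the 10 spots; the means lie between 2.90 and 2.92 and the spots of the arrays overlap.

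The promoter of SUMO3 holds the letters CACGTG, the E-box bound by c-Myc with its partner MAX and by other factors. It is shown because the study dealt with SUMOylation of c-Myc, and the promoter of PIAS4, described below, is the other one of these genes that holds it. The 30 bases around each E-box are printed 5′ to 3′ on the strand of the gene, in lower case with the E-box in capitals, from RefSeq on GRCh38.p14.
SUMO3 (chr21:44818109-44818138, minus strand): aacgcgcgcagcCACGTGacccccgtgccg
PIAS4 (chr19:4007697-4007726, plus strand): gtggtgagcggtCACGTGacgcgacggctg
The E-box began 64 bases before the start site (-64) of SUMO3 and 27 before that (-27) of PIAS4. Of the 10 promoter windows listed for these genes (250 bases before to 50 after a start site, with more than 1 for SENP1 and PIAS1), 2 held CACGTG, as did 7.26% of 35116 windows of the same length over all genes. The windows of these genes had a median GC content of 72.0%, against 58.7% over all, and SAE1 was named in the promoter table by no window. The match describes letters only, and no binding was measured.

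The E1 enzyme was measured by SAE1 and by the catalytic subunit UBA2, which carries the cysteine that takes up SUMO. SAE1 had 15022 intensity units in untreated cells, 15816 at CA 50 μM and 16542 at CA 100 μM. Its scaled level was highest in untreated cells. The log2 ratio was -0.12 with CA 50 μM and -0.10 with CA 100 μM, both inside the error of the scanner software. After cyclic loess the first became 0.0075. RefSeq lists 1 SAE1 pseudogene. UBA2 was measured by 2 probes that differed in sign at CA 50 μM. The A_33_P3383034 probe had 13920, 13270 and 13833 units, and its log2 ratio was -0.26 with CA 50 μM and -0.25 with CA 100 μM, or 1.27 and 1.21 times the error of the scanner software. The A_24_P376229 probe had 6659, 8174 and 7754 units, with log2 ratios of 0.11 and -0.02, of which the second took either sign with the alternatives, and its untreated spot had a background flag. The gap between the UBA2 probes was 0.36 at CA 50 μM, and 34.7% of 3266 genes with at least 2 measured probes had a gap as large. No direction is therefore given for UBA2.

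The PIAS proteins are E3 ligases that were first known as inhibitors of STAT factors. PIAS1 had 580 intensity units in untreated cells, 703 at CA 50 μM and 698 at CA 100 μM. Its log2 ratios of 0.09 and 0.03 lay inside the error of the scanner software, which was 0.20.

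PIAS4, also known as PIASY, had the largest log2 ratios of the member genes with the main processing, a rank that it lost with normexp and an offset of 50. Its probe had 21.6 intensity units in untreated cells, 46.9 at CA 50 μM and 42.5 at CA 100 μM. It was thus lowest on the untreated array and similar on both CA arrays. The log2 ratio to untreated was 0.93 with an error by the scanner software of 0.28 at CA 50 μM, which is a fold of 1.91. At CA 100 μM the log2 ratio was 0.74 with an error of 0.29, a fold of 1.67. These were the only member ratios past 1.5-fold, and none reached 2-fold. Both share the 1 untreated spot. The probe belonged to the dimmest of the 5 classes of signal, in which 8.75% of probes passed 1.5-fold upwards with CA 50 μM and 8.23% did with CA 100 μM. In this class, 2.1% of probes had a ratio as high as that of PIAS4 at CA 50 μM, and 5.08% did at CA 100 μM. Before any correction, the median spot brightness minus that of the surrounding background was 56 units in untreated cells, 82 at CA 50 μM and 78 at CA 100 μM, while spots not well above background had a median of 33, 35 and 37 units by this measure. With background correction by normexp and an offset of 50, the PIAS4 ratios were 0.17 and 0.05, below the 0.23 of SENP3 at CA 50 μM and the 0.15 of the A_23_P118435 probe of SUMO2 at CA 100 μM. Without the offset, which was added after the data had been seen, they were 0.52 and 0.34, so that under both settings no member probe was past 1.5-fold. The sign stayed positive at both doses under the alternatives that were tried.

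**Figure D2:**
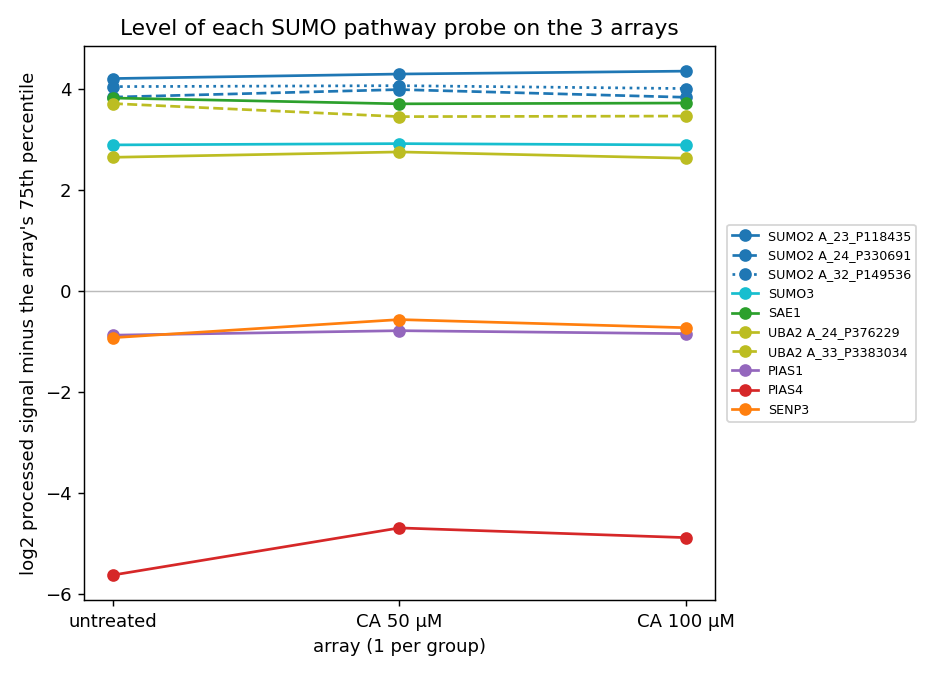
Scaled log2 level (log2 processed signal minus the 75th percentile of the array, vertical axis) of the 10 member probes on the 3 arrays, with 1 line per probe. Levels of different probes cannot be set against each other; the PIAS4 line went from -5.62 in untreated cells to -4.69 with CA 50 μM and -4.88 with CA 100 μM, a change that was larger than that of the other probes here but not with normexp and an offset of 50.

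The letters AAGATGG, the core of the site of the factor YY1, were found in 1 promoter window of each PIAS gene, on the strand of the gene. PIAS1 has more than 1 window. None of the windows of SUMO2, SUMO3, UBA2, SENP1 and SENP3 held them. They are shown because these genes are the 2 E3 ligases among the members, and the motif was chosen after the sequences had been read. The core is in capitals.
PIAS1 (chr15:68054313-68054342, plus strand): ctgacagacgcAAGATGGcggacagtgcgg
PIAS4 (chr19:4007747-4007776, plus strand): cgctggtgaccAAGATGGcggcggagctgg
With the start site counted as base 1, the core began at base 10 in PIAS1 and at base 23 in PIAS4. In both genes it thus lies after the start site and holds the letters ATG, which can also be a start codon. The letters were not checked against the coding sequences, so that a shared start of translation cannot be told apart from a YY1 site. It was held on either strand by 2 of the 10 member windows and by 5.84% of all windows. The log2 ratios at CA 50 μM were 0.09 for PIAS1 and 0.93 for PIAS4, as given above. The GC box GGGCGG was held by 7 of the 10 member windows against 45.0% of all, and CCAAT by 2 of the 10 (SUMO2 and PIAS4) against 34.6%, both counted on either strand.

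SENP3 is a nucleolar protease that removes mainly SUMO2 and SUMO3. It had 560 intensity units in untreated cells, 819 at CA 50 μM and 758 at CA 100 μM, with the lowest scaled level on the untreated array. The log2 ratio was 0.36 at CA 50 μM, or 1.76 times the error of the scanner software, and 0.20 at CA 100 μM, or 0.97 times that error. At CA 50 μM, 13.5% of all probes had a ratio as high, and at CA 100 μM 15.8% did. Under the alternatives it stayed between 0.23 and 0.36 at CA 50 μM and between 0.11 and 0.20 at CA 100 μM. RefSeq also lists a readthrough transcript of SENP3 and EIF4A1, from which the signal of SENP3 was not separated.

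**Figure D3:**
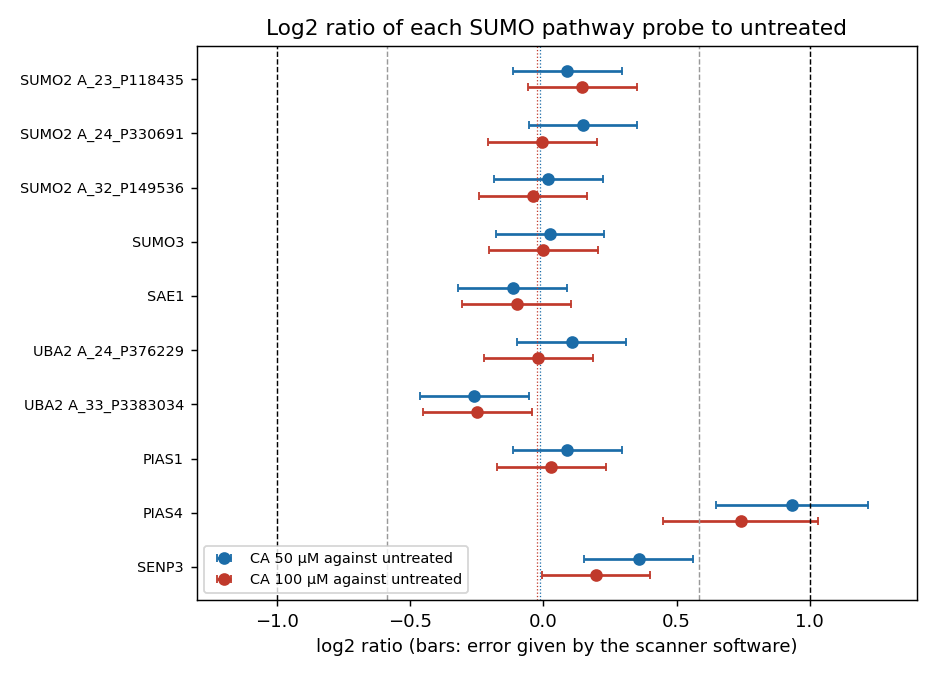
Log2 ratio to untreated (horizontal axis) of each member probe at CA 50 μM (blue) and CA 100 μM (red), with bars for the error given by the scanner software. Grey and black dashed lines mark 1.5-fold and 2-fold, dotted lines the median of all probes; the PIAS4 points at 0.93 and 0.74 are the only ones past 1.5-fold, and with normexp none is.

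**Figure D4:**
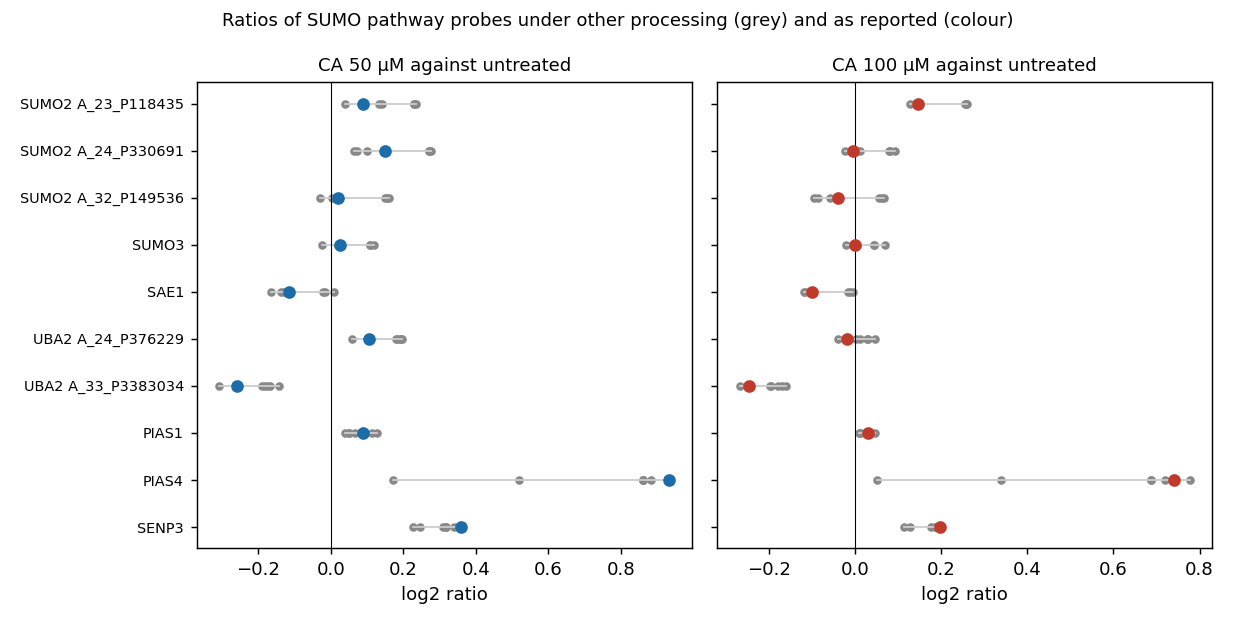
Log2 ratio to untreated (horizontal axes) of the 10 member probes at CA 50 μM (left) and CA 100 μM (right) as reported (colour) and with each alternative for processing (grey, joined by a line). PIAS4 reached down to 0.17 and 0.05, SENP3 stayed above 0 at both doses, and several SUMO2, SUMO3, SAE1 and UBA2 points crossed 0.

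As a group, the 7 measured genes had a median log2 ratio of 0.09 at CA 50 μM, with each gene represented by its brightest probe, against -0.01 over all 22471 probes measured on both arrays. This median was 0.025 with normexp and an offset of 50, 0.019 without the offset, 0.025 without spots that had a background flag and 0.04 after centring on array medians. It was higher, at 0.11, with quantile normalization and with the log2 values of the authors, and 0.12 with cyclic loess. The values ran from -0.26 for the brighter probe of UBA2 to 0.93 for PIAS4, while the other UBA2 probe gave 0.11. By their brightest probes, 5 of the 7 genes lay above the median of all probes. Of the 10 member probes, 1 was at least 1.5-fold higher, as were 5.05% of all probes, and 0 were as much lower, as were 2.17%. None was past 2-fold, against 1.07% of all probes. A log2 ratio above 0 was found for 8 of the 10, against 48.2% of all. At CA 100 μM the median of the 7 genes was 0.03 (from -0.0036 with normexp without an offset to 0.07 with cyclic loess) against -0.02 over 22267 probes, with a range from -0.25 to 0.74 and again 5 genes above the median of all. There, 1 of the 10 member probes was at least 1.5-fold higher, against 2.51% of all probes, and 0 were as much lower, against 1.8%. None was past 2-fold, against 0.894%, and 4 of the 10 lay above 0, against 45.2%. Several of these signs changed with the alternatives, as given above. The counts hold too few probes to be read as different from these shares. Of the 10 member probes, the 7 of SUMO2, SUMO3, SAE1 and UBA2 belonged to the brightest class of signal. In that class the median log2 ratio of all probes was -0.10 for the lower dose and -0.06 for the higher.

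Between the doses, the 10 member probes differed little. The log2 ratio of CA 100 μM to CA 50 μM ran from -0.19 for PIAS4 to 0.06 for the A_23_P118435 probe of SUMO2, and none was past the error of the scanner software. Over 22453 probes, 1.62% were at least 1.5-fold higher and 2.0% as much lower, against 0 and 0 of the 10 member probes. None was past 2-fold, against 0.855%, and 3 of the 10 lay above 0, against 47.8%. The median over the 7 genes was -0.03, and ran from -0.08 with normexp without an offset to 0.0033 after centring on array medians. The order of the scaled levels differed between probes. Of the 10 probes, 4 were highest at CA 50 μM and lowest at CA 100 μM, 3 were highest at CA 50 μM and lowest in untreated cells, 2 were highest in untreated cells and lowest at CA 50 μM, and 1 rose in the order of the dose. Except for PIAS4 and the A_33_P3383034 probe of UBA2, neighbours in the order differed by less than the error of the scanner software.

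A wider list of 23 genes, made from other SUMO ligases, proteases, SUMO-dependent ubiquitin ligases and known substrates or nuclear body proteins, had probes for 22 genes, while no probe was named SUMO4. Of their 31 probes, 29 were well above background on all arrays, and the others were the dimmest probe of PML and the dimmer probe of RANBP2. The median log2 ratio of the 22 genes was -0.05 at CA 50 μM, where 10 genes lay above the median of all probes, and -0.02 at CA 100 μM (0.011 after quantile normalization), where 12 did. In either direction, 10 of the 29 probes passed the error of the scanner software at CA 50 μM and 6 did at CA 100 μM. The share of all probes that passed it was not computed. At CA 100 μM 1 of the 29 probes was past 1.5-fold higher and 0 lower, against 2.51% and 1.8% of all probes. It was the dimmer of the probes of ZNF451, a SUMO ligase that builds SUMO2 and SUMO3 chains, with 35.2, 44.8 and 65.9 units and log2 ratios of 0.16 and 0.67. The brighter ZNF451 probe gave -0.18 and 0.05, so that the probes disagreed. The dimmer one belonged to the dimmest class of signal, in which 8.23% of probes passed 1.5-fold upwards at CA 100 μM. Between the doses, the dimmer probe of DESI2, a gene related to the deSUMOylase DESI1, was the 1 probe past 1.5-fold, with 150, 166 and 261 units and a log2 ratio of CA 100 μM to CA 50 μM of 0.60, whereas its brighter probe gave -0.0094. Of all probes, 1.62% were as much higher in this comparison and 2.0% as much lower.

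By role, the 9 further ligases had a median log2 ratio of -0.0047 with CA 50 μM and 0.02 with CA 100 μM, which does not show how far single ligases spread. The 7 further proteases had -0.16 and -0.07, from SENP6 at -0.35 and -0.48 by its brighter probe to SENP2 at 0.13 and USPL1 at 0.10, and 2 of the 7 lay above the median of all probes at CA 50 μM and 3 at CA 100 μM. SENP6, which trims SUMO2 and SUMO3 chains, had 270, 242 and 229 units by this probe, while its second probe gave -0.11 and -0.16. SENP2, with 1205, 1502 and 1526 units, had log2 ratios of 0.13 and 0.10. RANGAP1, the first known SUMO target, had 6843, 6993 and 7386 units and log2 ratios of -0.16 and -0.13. PML, the scaffold of nuclear bodies that recruit SUMO-modified proteins, had log2 ratios of -0.29 and -0.17 by its brightest probe, with 2227, 2080 and 2343 units, and 0.04 and 0.40 by a dim one with 46.3, 54.2 and 72.2 units.

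**Figure D5:**
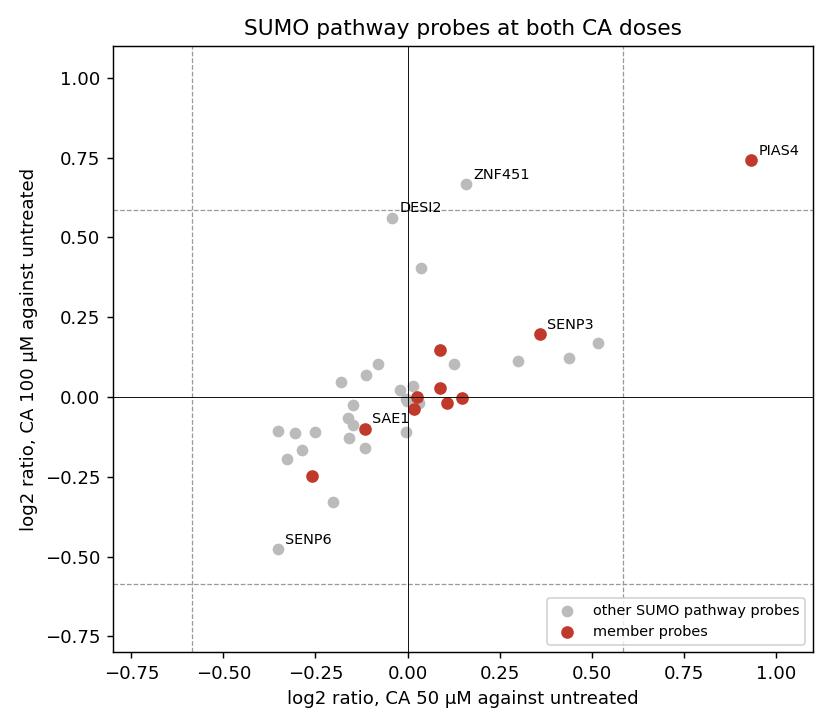
Log2 ratio to untreated at CA 50 μM (horizontal axis) and CA 100 μM (vertical axis) of the 10 member probes (red) and the probes of the wider SUMO list that are reported here (grey), with dashed lines at 1.5-fold. Both axes share the untreated array, so that points near the diagonal are no sign of a shared change; PIAS4, at 0.93 and 0.74, is the only probe past 1.5-fold on both axes, which it is not with normexp.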

How the data were processed

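Total RNA of Huh7 cells from 3 groups, 1 array each, was labelled and scanned by the authors, who quantified the spots with Agilent Feature Extraction 11.0.1.1 (per the labels). The deposited intensity values used here are processed signals in arbitrary units, after subtraction of background and surface trends by that software, and not scaled between arrays. The authors also deposited log2 values per probe, made in a way not given in the sources used here. Their 3 columns share a median of 6.22, and they served as an alternative. In each column the levels correlated with those computed here at 0.99995 or more, which does not show that the ratios are alike. The SUMO3 ratio at CA 50 μM, for example, was 0.025 here and 0.11 with the authors' values. It was also 0.11 with quantile normalization, to which the authors' values came close for the member probes. The array design was annotated on GRCh37, so that probes are given without coordinates.

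Spots flagged as non-uniform or population outliers were left out, log2 signals were scaled to the 75th percentile of each array, and spots of a probe were averaged. Ratios were formed where at least 50% of the spots were well above background on both arrays. RefSeq accessions (GRCh38.p14) named 25771 of 34127 probes. With 1 array per group no test was made, and calls are by 1.5-fold or 2-fold. The members, the lists and the sequence motifs were chosen with earlier results of these data known. The text names every member probe and, of the wider list, genes past 1.5-fold in any comparison, genes with no probe well above background on any array, RANGAP1, PML and SENP2. SENP6 and USPL1, at the ends of a range, and RANBP2 were named after their values were seen. Some genes of the pathway, also where this rule would name them, are not reported here. An area was called disturbed where, in a window 17 rows high and 7 columns wide, at least 5 spots, and 25% of the spots of probes dim on both other arrays, were 4-fold brighter on 1 array. Results were recomputed with cyclic loess, quantile normalization, median centring, normexp with an offset of 50 or none, the authors' log2 values, other filters on dim probes, leaving out saturated, flagged or disturbed spots, and the mean over probes. The scaling, ratio and call steps were tested on simulated data with 4-fold changes, the 2-fold call and the same noise at all signal levels. The 1.5-fold call was not simulated. The tools were limma 3.58.1 in R 4.3.3, and pandas 2.3.3 and numpy 2.4.6 in Python 3.11.15. The number of arrays limits the precision.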

Additional observations from a re-analysis of the deposited data

How the results depend on the processing

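Each value was computed again with the alternatives, of which normexp without an offset was chosen after seeing the data. Of 428 values, 363 counted as the same and 65 as moved, by the spot error for ratios and by a 1.5-fold rule for counts. Other filters on dim probes and leaving out saturated or disturbed spots returned the main values exactly. These are part of the 363 and could not show a move. The spot error was the median over all classes of signal, 0.064 at CA 50 μM, below the 0.21 of the dimmest class. A change of sign was looked for only in ratios of at least 2-fold, which none reached. The count of member probes past 1.5-fold, which was 1 at each dose against untreated, became 0 at CA 50 μM and 0 at CA 100 μM with normexp, and 0 and 0 with normexp without an offset. The median over the member genes at CA 50 μM became 0.019 with normexp without an offset, from 0.09, and 0.025 both with normexp and without spots with background flags. In the other direction it reached 0.12 with cyclic loess. The PIAS4 ratio ran from 0.17 to 0.93 at CA 50 μM and from 0.05 to 0.78 at CA 100 μM. The cause was not tested. Ratios of SUMO2, SUMO3, SAE1 and UBA2 near 0 have no settled sign. No paired analysis was possible because each group had 1 array, and no replicate could be left out for the same reason. Signal close to background limits the PIAS4 value in particular.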
